A study of Homo sapiens with 4 samples.

Results

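RD and JR1 are established cell lines of fusion-negative rhabdomyosarcoma (FN-RMS), a childhood tumour of muscle lineage without a PAX3 or PAX7 fusion to FOXO1. Their control cells were compared here, that is, the library labelled RD shSCR with the library labelled JR1 shSCR. These 2 libraries are all the members, out of 4 libraries in the series, and they were chosen by their labels. The other 2 libraries are RD and JR1 cells with shSKP2.2, a hairpin against the ubiquitin ligase subunit SKP2. All 4 were poly-A RNA of cells infected with a pLKO.1-puro lentivirus and selected with puromycin, and shSCR is a hairpin without a target. The labels give every sample the genotype WT, while the study describes both lines as carrying mutated p53 and as derived from a recurrent (RD) and a metastatic (JR1) tumour. There was 1 library per line and hairpin, so the line, its culture and its library cannot be told apart, and no difference below has a replicate check or a p-value.

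Cells of rhabdomyosarcoma keep the muscle master regulators MYOD1 and MYOG switched on, yet go on dividing instead of fusing into fibres. In normal myogenesis MYOD1 starts the programme, MYOG carries it through, the division machinery is shut down, and genes of the contractile apparatus follow. Lines of the same tumour class can therefore stand at different points between division and differentiation, and their HOX genes can record different positions along the body axis.

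Short structural RNAs, such as the 7SL and 7SK RNAs, took 58.6% of the deposited TPM, a unit of the share of all transcripts, in RD shSCR and 66.5% in JR1 shSCR. They were removed and the rest was rescaled to the same total, and every TPM below is on that scale. With the shSKP2.2 libraries included, the share ranged from 58.6% to 72.1%. The depth of the libraries is unknown because TPM keep no read counts. The knocked-down gene SKP2 stood at 224 TPM in RD shSCR, 139 in JR1 shSCR, 23.9 in RD shSKP2.2 and 9.75 in JR1 shSKP2.2, so it was lower in each shSKP2.2 library than in the shSCR library of its line.

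The lines were compared gene by gene as log2 (TPM + 1) in RD minus log2 (TPM + 1) in JR1, positive when RD was higher, and the added 1 understates the difference for genes of low level. Of 39323 genes, 15219 averaged 1 TPM or more across all libraries and were tested. By at least 1 on this log2 scale, that is 2-fold, RD was higher for 717 genes (4.71% of those tested) and JR1 for 1065 genes (7%). At least 4-fold apart were 104 genes higher in RD and 203 higher in JR1. The median difference of all tested genes was -0.04, and the middle 80% of the genes lay between -0.79 and 0.66. The balance of directions depended on the scaling: with the TPM as deposited the median was 0.23, and 844 genes were higher in RD against 448 in JR1.

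The lines were compared once more in the shSKP2.2 libraries, which share no library with the control pair. Of the 717 genes higher in RD shSCR, 682 were also on the RD side in the shSKP2.2 pair and 438 passed the limit there. Of the 1065 genes higher in JR1 shSCR, 950 were on the JR1 side and 491 passed the limit. The shared genes are 61.1% of the RD calls with shSCR and 46.0% of those with shSKP2.2, and 46.1% and 65.2% of the JR1 calls. In the shSKP2.2 pair 6.26% of all tested genes were called higher in RD and 4.95% higher in JR1. Passing the limit the opposite way were 2 genes called for RD and 11 called for JR1. Across the 15219 genes the differences of both pairs had a Pearson r of 0.712, and genes are not independent replicates. The levels of RD and JR1 shSCR had a Pearson r of 0.944 across the same genes, close to the 0.945 between the hairpin libraries of JR1 and below the 0.960 between those of RD.

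**Figure D1:**
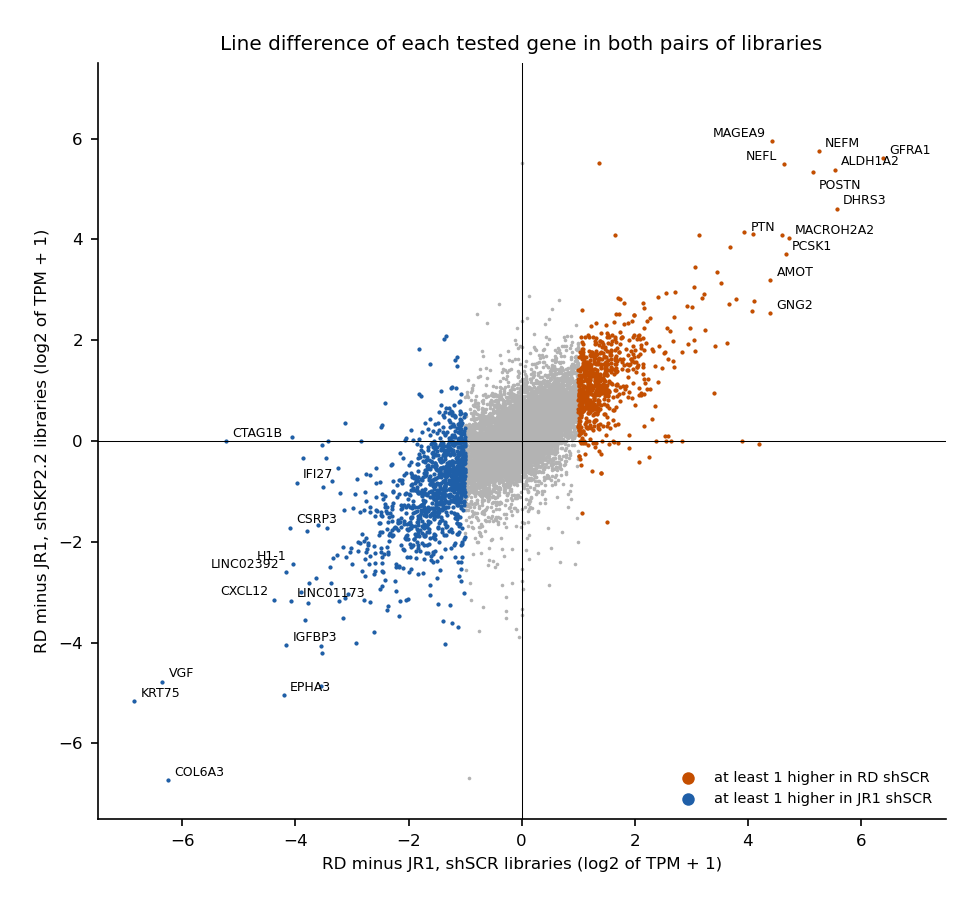
Difference of RD minus JR1 on the log2 (TPM + 1) scale for each tested gene, with the shSCR libraries on the x axis and the shSKP2.2 libraries on the y axis. Orange points are genes at least 1 higher in RD shSCR and blue points genes at least 1 higher in JR1 shSCR, and the 12 largest differences on each side are named. All 12 named RD genes lie above 2 on the y axis, while CTAG1B, far left, lies at 0.

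Both lines carried the markers of muscle lineage tumour cells. MYOD1, which starts the muscle programme, stood at 210.0 TPM in RD and 300.3 in JR1. MYOG, which acts after it, stood at 76.2 TPM in RD and 161 in JR1, -1.07 on the log2 scale, which was -0.76 with the TPM as deposited. DES, the muscle intermediate filament desmin, had 94.8 and 153 TPM, and MYF5, the other early muscle factor, was listed at 0 in all 4 libraries. Of 8 tested markers of rhabdomyosarcoma or of its fusion-negative form, none was higher in RD and 3 were higher in JR1, namely FBN2, CHRNG and MYOG. Only FBN2 of these was listed for the fusion-negative form. The other markers of that form, HMGA2 (-0.77) and EGFR (0.19), were within the limit. The fetal acetylcholine receptor subunit CHRNG had 7.73 and 24.0 TPM, and the fibrillin FBN2 had 8.02 and 31.6 TPM. Of 10 markers of the fusion-positive group only 3 were tested, the other 7 staying at or below 0.942 TPM in both control libraries. Higher in JR1 was 1 of the 3, the receptor kinase ALK with 0.604 and 6.15 TPM. The 10 markers summed to 121 TPM in RD and 148 in JR1, led by the receptor kinase FGFR4, which differed by -0.23.

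Markers of other cell types were summed over each list. Epithelial markers summed to 535 TPM in RD and 282 in JR1, most of it KRT18, with 8 of 25 at 0 in both, KRT5 and KRT14 among them. Blood and endothelial markers summed to 138 and 95.5 TPM, with PTPRC, the general leukocyte antigen, and 4 others of 26 at 0 in both. Among neural markers, 9 of 42 were at 0 in both and the sums were 2399 and 2542 TPM, led by UCHL1. Fibroblast and tendon markers summed to 3729 TPM in RD and 4642 in JR1, led by COL3A1, with FAP and TNMD at 0 in both. Their part in the differences below was not tested.

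The 12 genes that stood highest over JR1 in RD include genes of secreted proteins, of neurofilament subunits and of enzymes of retinoid metabolism. GFRA1, the receptor for the growth factor GDNF, had 128 TPM in RD and 0.537 in JR1, the widest gap on this side at 6.39. ALDH1A2, which makes retinoic acid, had 48.2 and 0.0597 TPM, and DHRS3, a retinaldehyde reductase, had 115 and 1.43 TPM. Both retinoid genes were also at least 4 higher on the log2 scale in RD in the shSKP2.2 pair, at 5.39 and 4.61. The neurofilament subunits NEFM and NEFL, which are neighbours on chromosome 8, had 95.3 and 165 TPM in RD against 1.52 and 5.70 in JR1. Of 15 tested neural markers these 2 were higher in RD and 2 in JR1, STMN4 and SYT1. The median of the 15 was -0.35, and 0.095 with the TPM as deposited. POSTN, the matrix protein periostin, had 45.1 and 0.298 TPM, and PTN, the secreted growth factor pleiotrophin, had 36.9 and 0.567. The remaining genes of this group vary widely in what their products do. MACROH2A2, a histone variant, had 80.7 and 2.09 TPM, GNG2, a G protein subunit, had 131 and 5.28, and AMOT, a regulator of YAP, had 28.3 and 0.388. PCSK1, a protease that processes hormone precursors, had 24.5 TPM in RD and was listed at 0 in both JR1 libraries. The tumour antigen MAGEA9 had 43.0 and 1.04 TPM, and since its copy MAGEA9B is nearly identical the sum of both, 52.2 and 2.09 TPM, is the safer value.

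The 12 genes that stood highest over RD in JR1 are led by a keratin, a neuropeptide precursor and a collagen. KRT75, a hair follicle keratin, had 0.145 TPM in RD and 131 in JR1, or -6.85 on the log2 scale. VGF, which is cut into neuropeptides, had 17.9 and 1544 TPM, and COL6A3, a chain of the microfibril collagen VI, had 2.17 and 242 TPM. All 3 were at least 4 lower on the log2 scale in RD in the shSKP2.2 pair as well, at -5.17, -4.78 and -6.73. IGFBP3, which binds insulin-like growth factors, had 19.1 and 359 TPM, and EPHA3, an ephrin receptor, had 0.217 and 21.4 TPM. CSRP3, a muscle LIM protein of the Z-disc, had 0.990 and 33.1 TPM, and the interferon-induced IFI27 had 1.04 and 31.2 TPM. These genes are spread over several chromosomes, and their products have no single role. The chemokine CXCL12 had 19.7 TPM in JR1 and was listed at 0 in RD shSCR, and so was the noncoding LINC01173, with 16.0 TPM in JR1. LINC02392 had 1.38 and 41.9 TPM, and H1-1, a linker histone, had 0.555 and 24.6 TPM. The cancer-testis gene CTAG1B was listed at 0 in RD and at 36.5 TPM in JR1, but its near-identical copy CTAG1A had 73.9 and 40.7 TPM. Summed over both copies the lines had 73.9 and 77.2 TPM, a difference of -0.06.

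**Figure D2:**
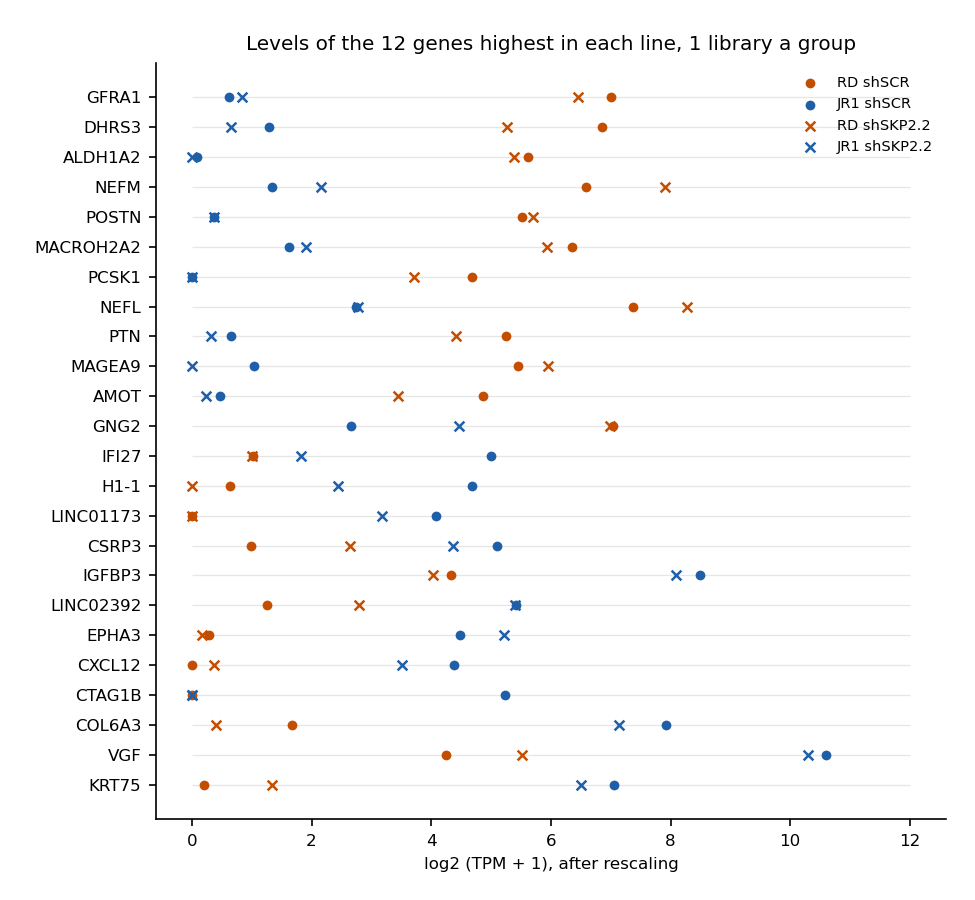
Levels as log2 (TPM + 1) on the x axis of the 12 genes with the largest difference in favour of each line, 1 row a gene, with 1 library a point. Orange is RD and blue is JR1, circles are shSCR and crosses shSKP2.2. In the upper 12 rows both RD points lie to the right of both JR1 points, and in the lower rows the order is the reverse except for CTAG1B, at 0 in 3 libraries.

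Genes of cell division were higher in RD. In these bulk libraries, fewer cells of a kind and less RNA per cell cannot be told apart. Of 43 S phase genes tested, 15 were higher in RD and none in JR1, with a median difference of 0.90 against -0.04 for all genes. The highest were EXO1, a repair nuclease with 22.6 and 7.19 TPM, the S phase cyclin CCNE2 with 11.2 and 3.34, and TYMS, which makes thymidylate, with 268 and 95.9. Only 2 of the 43 genes lay on the JR1 side, and the lowest, MRPL36, reached -0.19. Of 54 genes of the G2 and M phases, 20 were higher in RD and none in JR1, with a median of 0.86. NUF2, of the outer kinetochore, had 39.5 and 12.5 TPM, PIMREG had 56.8 and 18.5, and CDCA3, a trigger of mitotic entry, had 77.7 and 26.9. In the shSKP2.2 pair the medians of the lists were 0.96 and 1.37, and 43 of the 54 G2 and M phase genes passed the limit in favour of RD. The proliferation marker MKI67 stood at 123 TPM in RD and 43.4 in JR1 with shSCR.

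Cell cycle regulators, a list that holds mitotic genes besides those of entry into the cycle, did not all lie on the same side. The list shares members such as CCNE2, CDK1 and MKI67 with the phase lists above. Of 36 tested, 9 stood higher in RD and 5 stood higher in JR1, with a median of 0.52. The D-type cyclin CCND2 had 99.3 TPM in RD and 808 in JR1, -3.01 on the log2 scale. Among the genes for INK4 inhibitors of CDK4 and CDK6, CDKN2B with 6.74 and 30.2 TPM and CDKN2A with 82.3 and 289 were also on the JR1 side. On the RD side, besides MKI67 and CCNE2, stood FBXO5, an inhibitor of the anaphase-promoting complex, with 66.7 and 26.0 TPM. The CIP/KIP inhibitors were within the limit as transcripts. CDKN1A (p21) had 218 and 331 TPM, CDKN1B (p27) had 37.6 and 33.3, and CDKN1C (p57) had 10.4 and 6.47. As proteins, the study found p27 and p57, but not p21, bound to SKP2 in these lines. MYC was at the same level in both lines, with 145 and 146 TPM, and none of 20 genes of its network passed the limit in either direction.

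Replication-dependent histone genes were mostly higher in RD. Their messages are made in S phase and end in a stem-loop in place of a poly-A tail, and the libraries were selected for poly-A. This group was added after the values had been seen. Of 63 tested, 53 were higher in RD and 1 was higher in JR1, with a median of 1.35, and 1.45 in the shSKP2.2 pair. Together they took 6.53% of the rescaled TPM in RD shSCR and 2.55% in JR1 shSCR, and 2.94% and 1.12% with shSKP2.2. The cluster on chromosome 6 holds 53 of them and had a median of 1.32, and the 10 on other chromosomes had a median of 1.46. H2BC18 had 2500 and 638 TPM, and H4C13 had 172 and 42.6 TPM. The exception is H1-1, given above, and copies of the same histone are close in sequence, so the share of each is uncertain.

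Genes of the contractile apparatus were higher in JR1. Of 66 striated muscle genes tested, 35 were higher in JR1 and none in RD, with a median of -1.08, and 56 lay on the JR1 side. With the TPM as deposited the median was -0.65, and in the shSKP2.2 pair it was -1.59, with 45 genes past the limit for JR1. After CSRP3 the widest differences were those of CAV3, the muscle caveolin, with 1.14 and 14.1 TPM, and MYLPF, a fast myosin light chain, with 37.6 and 265 TPM. Further members, named after their values were seen, come from thin and thick filaments alike. The light chain MYL1 had 17.1 and 102 TPM, the slow troponin TNNI1 had 12.4 and 65.9, and the embryonic heavy chain MYH3 had 4.81 and 25.0. ACTC1, the cardiac actin used by fetal muscle, had 724 and 1502 TPM, and the receptor subunit CHRND had 41.5 and 158. Other members were at like levels, such as TNNT1 with 519 and 405 TPM and RYR1, the calcium release channel, with 48.7 and 56.1 TPM. ACTA1, the adult skeletal actin, was low in both lines at 1.42 and 0.567 TPM, and so was MYH2, a fast adult heavy chain, at 0.990 and 1.76 TPM.

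Regulators of the muscle programme stood on both sides. Of 26 tested myogenic regulators, 2 stood higher in RD and 7 stood higher in JR1, with a median of -0.34 that turned to 0.15 with the TPM as deposited. Genes for fusion of myoblasts were on the JR1 side, MYMK with 2.95 and 35.9 TPM and MYMX with 7.87 and 36.3 TPM. BHLHE41, a repressor, was on the same side with 0.0966 and 2.51 TPM. Both genes on the RD side encode inhibitors of myogenic factors: MDFI had 75.7 and 27.5 TPM and ID2 had 56.4 and 21.6 TPM. Of 21 progenitor factors, 3 stood higher in JR1. These were VGLL3 with 2.05 and 8.21 TPM, PITX3 with 61.6 and 133, and the Notch effector HEYL with 31.4 and 64.4. The progenitor marker PAX7, named after its value was seen, had 26.0 TPM in RD and 14.4 in JR1, and PAX3 had 26.4 and 28.2.

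HOX genes, which record position along the body axis, were on the RD side. Of 37 tested, 16 were higher in RD and none in JR1, with a median of 0.70 here and 0.75 in the shSKP2.2 pair. The widest were HOXD4 with 24.7 and 3.85 TPM, HOXA6 with 33.1 and 6.59, and HOXB8 with 38.3 and 7.91. The clusters differed among themselves, a split made after the values had been seen. In the HOXD cluster 6 of 8 genes passed the limit with a median of 1.69, in HOXA 6 of 11 with 1.17, and in HOXB 4 of 9 with 0.37. In the HOXC cluster 0 of 9 genes passed it, with a median of 0.36 and a highest value of 0.87. Of 54 other regional transcription factors, 16 stood higher in RD and 6 stood higher in JR1. ALX4, a factor of limb and face, had 72.4 and 3.28 TPM, ISL1 had 19.1 and 0.865, and TBX2 had 56.3 and 14.4. On the JR1 side stood the neighbours DLX5 with 1.01 and 22.5 TPM and DLX6 with 2.13 and 14.3 TPM, and IRX6 with 0.362 and 10.9 TPM. ALX4, ISL1, DLX5 and IRX6 were thus at or below 3.28 TPM in the line where they were lower.

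**Figure D3:**
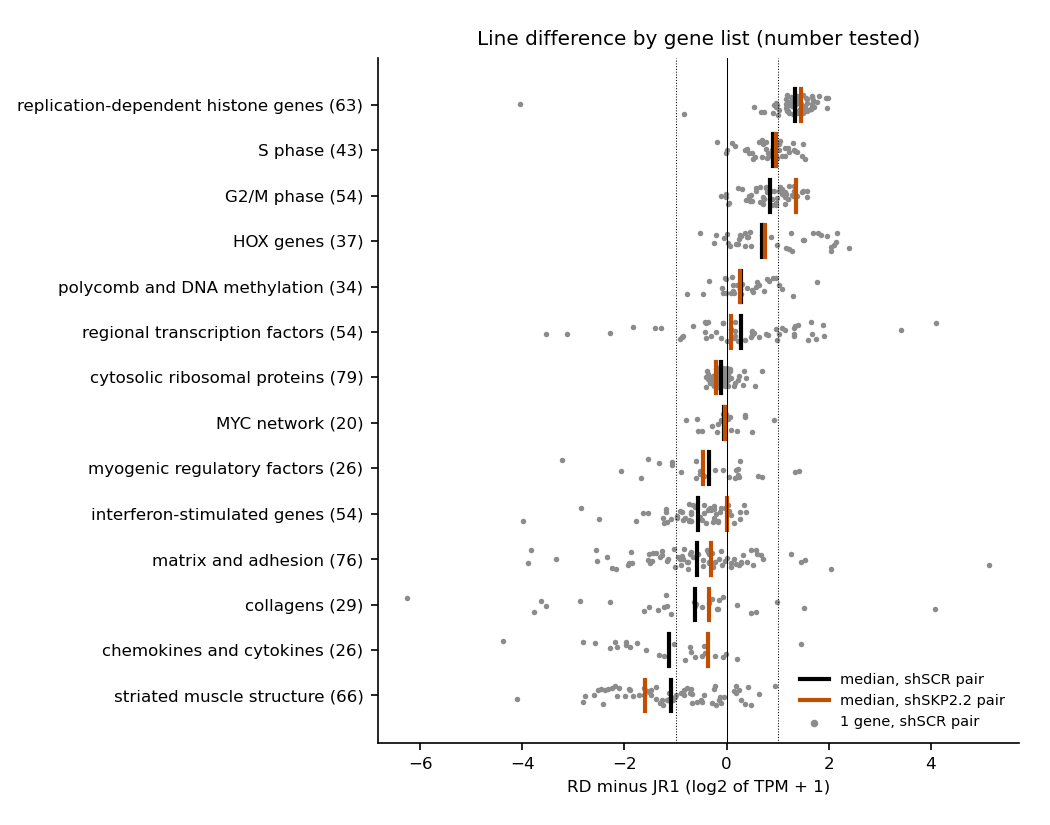
Difference of RD minus JR1 on the log2 (TPM + 1) scale for the tested members of 14 gene lists, the number tested in parentheses, 1 grey point a gene in the shSCR pair. Thick bars are list medians, black for shSCR and orange for shSKP2.2, and dotted lines mark the limit of 1 in either direction. Histone and S phase medians coincide closely in both pairs at 0.90 or more, while the interferon median moves from -0.57 to 0.00.

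Genes of the extracellular matrix were mostly on the JR1 side, with a few strong exceptions. Of 29 tested collagen genes, 13 were higher in JR1 and 2 in RD, with a median of -0.62 (-0.35 in the shSKP2.2 pair). After COL6A3 came COL1A2, a chain of the main fibrillar collagen, with 0.217 and 15.6 TPM, and COL15A1 of basement membranes with 5.17 and 75.5 TPM. The partner chain COL1A1, named after its value was seen, had 741 and 1154 TPM, so RD had its message almost without that of COL1A2. The exceptions were COL8A1 with 28.9 and 0.776 TPM and COL9A3 with 6.42 and 1.58 TPM. Of 76 other matrix and adhesion genes, 25 were higher in JR1 and 5 in RD, with a median of -0.58 that was -0.21 with the TPM as deposited. LAMB3, a laminin chain of epithelial basement membranes, had 1.76 and 40.1 TPM, TIMP3, a protease inhibitor, had 6.01 and 99.4, and LUM, the proteoglycan lumican, had 0.121 and 10.3. Besides POSTN, the RD side held the collagen receptor ITGA1 with 13.0 and 2.39 TPM and TNXB with 7.29 and 1.85 TPM. Of 16 tested fibroblast and tendon markers, 7 were higher in JR1 and 2 in RD, and S100A4 had 56.9 and 319.5 TPM.

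Secreted immune genes were higher in JR1 with the control hairpin. Of 26 tested chemokine and cytokine genes, 14 were higher in JR1 and 1 in RD, with a median of -1.12 that was -0.37 in the shSKP2.2 pair. LIF, a cytokine of the IL6 family, had 4.81 and 39.9 TPM, while its receptor LIFR, the gene on the RD side, had 48.2 and 16.9 TPM. CCL20 had 0.241 and 6.39 TPM. Of 54 interferon-stimulated genes, 12 were higher in JR1 and none in RD, with a median of -0.57 that was -0.18 with the TPM as deposited. In the shSKP2.2 pair the median of the same genes was 0.00, with 6 genes past the limit for JR1 and 2 for RD. GBP1, a GTPase that coats intracellular pathogens, had 7.70 TPM in RD and 62.0 in JR1, and IFI44L had 4.44 and 29.6 TPM. The antiviral modifier ISG15, named after its value was seen, was within the limit with 1563 and 1809 TPM. Of 26 genes of MHC class I presentation, 5 were higher in JR1 (19.2%) and none in RD. Their median of -0.43 became 0.20 in the shSKP2.2 pair and -0.085 with the TPM as deposited. NLRC5, the activator of class I genes, had 7.75 and 19.2 TPM, HLA-B had 17.5 and 38.7, and HLA-F had 1.18 and 4.86. The HLA genes are close in sequence to each other. With the TPM as deposited NLRC5 (-0.82) and HLA-B (-0.76) were within the limit.

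Among receptors and their ligands, more genes passed the limit for JR1 than for RD. Of 33 receptor tyrosine kinases, 2 stood higher in RD and 7 stood higher in JR1 (21.2%, against 7% of all genes). ROR2, a receptor for Wnt ligands, had 24.8 and 0.686 TPM, FLT4, the receptor of lymphatic growth factors, had 6.76 and 2.83, and MERTK had 4.20 and 16.7. EPHA3 and ALK, given above, lie on the JR1 side. Of 29 growth factor ligands, 2 stood higher in RD and 7 stood higher in JR1 (24.1%), and 20 of the 29 lay on the JR1 side. Their side depended on the scaling: the median was -0.42, but 0.081 with the TPM as deposited and 0.077 in the shSKP2.2 pair. With shSKP2.2, 3 ligands passed the limit in each direction. The JR1 side held HBEGF, a ligand of the EGF receptor, with 4.13 and 33.4 TPM and CCN1 with 222 and 679 TPM. FGF7 had 2.03 and 0.179 TPM, and PDGFD had 2.39 TPM in JR1 and was listed at 0 in RD. In the IGF axis, RD was higher for 2 of 14 genes (14.3%) and JR1 for 1 (7.14%, near the 7% of all genes). The binding proteins took opposite sides: IGFBP5 had 63.0 and 5.07 TPM and IGFBP6 had 1117 and 523 TPM, while IGFBP3 was higher in JR1. Of 35 genes of RAS-MAPK output, 2 stood higher in RD (5.71%, near the 4.71% of all genes) and 5 stood higher in JR1 (14.3%). The phosphatase DUSP4 had 339 and 75.3 TPM and RASSF2 had 11.8 and 2.86, while EGR1 had 111 and 402, CCND1 had 133 and 318 and DUSP5 had 49.0 and 106.

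Developmental pathways differed in how their calls fell. Of 39 genes of the TGF-beta and BMP pathway, 5 stood higher in RD and 10 stood higher in JR1. The ligand BMP4 had 4.30 and 46.5 TPM, and LTBP2 had 19.4 and 72.3. On the other side were SMAD9 with 2.78 and 0.507 TPM, the muscle growth inhibitor MSTN with 148 and 66.9, and LTBP1 with 258 and 123. Of 22 Notch genes, 1 was higher in RD, DTX1 with 8.33 and 1.43 TPM, and 7 in JR1 (31.8%). Their median of -0.49 was -0.065 with the TPM as deposited, and in the shSKP2.2 pair 2 passed the limit in each direction. The ligand JAG1 had 21.1 and 117 TPM, the receptor NOTCH3 had 96.4 and 251, and CNTN1 had 0.531 and 3.31. Of 35 Wnt genes, 4 stood higher in RD and 5 stood higher in JR1. The antagonist DKK1 had 558 and 198 TPM, FZD7, a receptor, had 174 and 66.1, and NKD2 had 6.71 and 2.63, while WNT10B had 1.76 and 10.3, WNT9A had 11.0 and 42.8 and RSPO2 had 0.0724 and 3.16. Of 15 Hedgehog genes, 2 were higher in RD, SCUBE3 with 10.0 and 2.63 TPM and FOXM1, also a driver of mitosis, with 178 and 80.8 TPM. Of 23 YAP and TEAD genes, which include pathway members such as YAP1 and LATS1 besides targets, 3 were higher in JR1 and none in RD. The 3 were the targets ANKRD1, CCN1 and CCN2. Of 23 genes of the p53 pathway, 2 were higher in JR1 (8.70%, near the 7% of all genes) and none in RD, GADD45A with 70.5 and 179 TPM and ZMAT3 with 3.60 and 8.92 TPM.

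Among cadherins, 3 of 24 were higher in each line. CDH4 had 29.8 and 0.776 TPM, PCDH15 had 13.9 and 4.39 and CDH11 had 75.2 and 26.9, while DSG2 had 4.27 and 26.0, CDH2 had 118 and 325 and CDH7 had 5.36 and 13.2. Of 34 genes of polycomb and DNA methylation, 4 were higher in RD and none in JR1, with a median of 0.28. CBX2, a reader of the polycomb mark, had 75.8 and 21.5 TPM, HMGA1 had 813 and 330, and PHF19 had 149 and 69.3. Of 31 imprinted genes, 8 were higher in JR1, led by DLX5, PEG10 with 89.4 and 934 TPM and DIRAS3 with 1.33 and 14.8 TPM. MEST, the imprinted gene on the RD side, had 391 and 124 TPM. Of 37 cancer-testis genes, 3 stood higher in RD and 5 stood higher in JR1, and most belong to families of near-identical copies. The XAGE1A and XAGE1B pair summed to 73.3 and 185 TPM, and the 12 GAGE genes summed to 268 and 352. TDRD1 had 0.0724 and 2.92 TPM. Of 469 zinc finger genes, 13 stood higher in RD (2.77%) and 10 in JR1 (2.13%), below the 4.71% and 7% of all genes. The widest were ZNF618 with 47.4 and 5.01 TPM and ZNF385B with 0.169 and 12.7 TPM.

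In 2 large housekeeping groups no member passed the limit. None of 79 ribosomal protein genes and none of 76 nuclear genes of oxidative phosphorylation differed by 1 or more, with medians of -0.11 and -0.26 that turned to 0.19 and 0.04 with the TPM as deposited. In glycolysis and hypoxia, 5 of 33 genes were higher in JR1 and none in RD. The hypoxia factor EPAS1 had 8.96 and 39.8 TPM, ALDOC had 1.21 and 3.91, and EGLN3 had 0.604 and 2.54. Of 32 genes of cholesterol and lipid synthesis, 1 (3.1%) passed the limit in each direction, below the 4.71% and 7% of all genes. These were FADS2 with 58.6 and 24.0 TPM and CYP51A1 with 239 and 545. Of 31 stress response genes, 1 was higher in RD (3.23%) and 2 in JR1 (6.45%), near or below the shares of all genes. HSPA1B was higher in RD with 321 and 132 TPM, and ATF3 and TRIB3 in JR1 with 69.5 and 145 and with 38.9 and 86.9 TPM. Of 30 channel genes, 3 stood higher in RD (10%) and 6 stood higher in JR1 (20%), against 4.71% and 7% of all genes. Of 31 clustered protocadherins 1 (3.23%) and 3 (9.68%) did.

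Along the genome, chromosomes 6 and 7 had the highest shares of called genes, a pattern looked for after the differences had been seen. On chromosome 6, 130 of 777 genes were higher in RD (16.7%), and on chromosome 7, 141 of 766 were higher in JR1 (18.4%), against 4.71% and 7% of all genes. Chromosome 21 also leaned to JR1, with 29 of 180 genes higher there (16.1%) and a median of -0.32, which was -0.039 with the TPM as deposited. Stretches were sought where the running median of 21 neighbouring genes was at least 1.5-fold away from 0 over 20 genes or more. There were 7 such stretches, all on chromosomes 6 and 7. The longest runs from ADAM22 to SRPK2 on chromosome 7 (chr7:87934163-105399363 in GRCh38) and holds 174 tested genes. Their median was -1.19, 111 were higher in JR1 and 0 in RD, and 165 of 174 lay on the JR1 side. In the shSKP2.2 pair, which the search did not use, the median of the same genes was -1.09, with 97 past the limit for JR1 and 3 for RD. The stretch holds VGF, COL1A2, PEG10, DLX5, DLX6 and CYP51A1 among the genes above, and 10.4% of all genes higher in JR1. MCM7, a replication licensing gene inside it, was at the same level in both lines, with 513 and 508 TPM, while unrelated neighbours such as COPS6, of the signalosome, and PSMC2, of the proteasome, differed by -1.34 and -1.41. The genes of chromosome 7 outside these stretches had a median of 0.09.

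On chromosome 6 the 5 stretches lay between chr6:5031029 and chr6:44158726 and held 258 tested genes, with a median of 0.83 and 92 genes higher in RD. In the shSKP2.2 pair their median was 0.77, with 84 genes past the limit for RD. Among the genes above, besides histone genes, these stretches hold MDFI, HSPA1B and TNXB, called for RD, and HLA-F, called for JR1. The rest of the chromosome, 519 genes, had a median of 0.01. Histone genes made up part of this. The stretch from GMNN to BTN2A3P had a median of 1.27, and without its 32 histone genes the other 10 had a median of -0.10. Without histone genes the other 4 stretches of chromosome 6 had medians from 0.68 to 0.74. Over all 5 stretches, the 207 genes that are no histone genes had a median of 0.70, and 49 of them were higher in RD. A shorter stretch on the same chromosome as VGF, from BUD23 to TRIM73, had 25 genes with a median of 0.75. Outside all stretches RD was higher for 618 genes and JR1 for 947, so the stretches hold 13.8% of the RD calls and 11.1% of the JR1 calls. The copy number of these segments in the 2 lines was not analysed here.

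**Figure D4:**
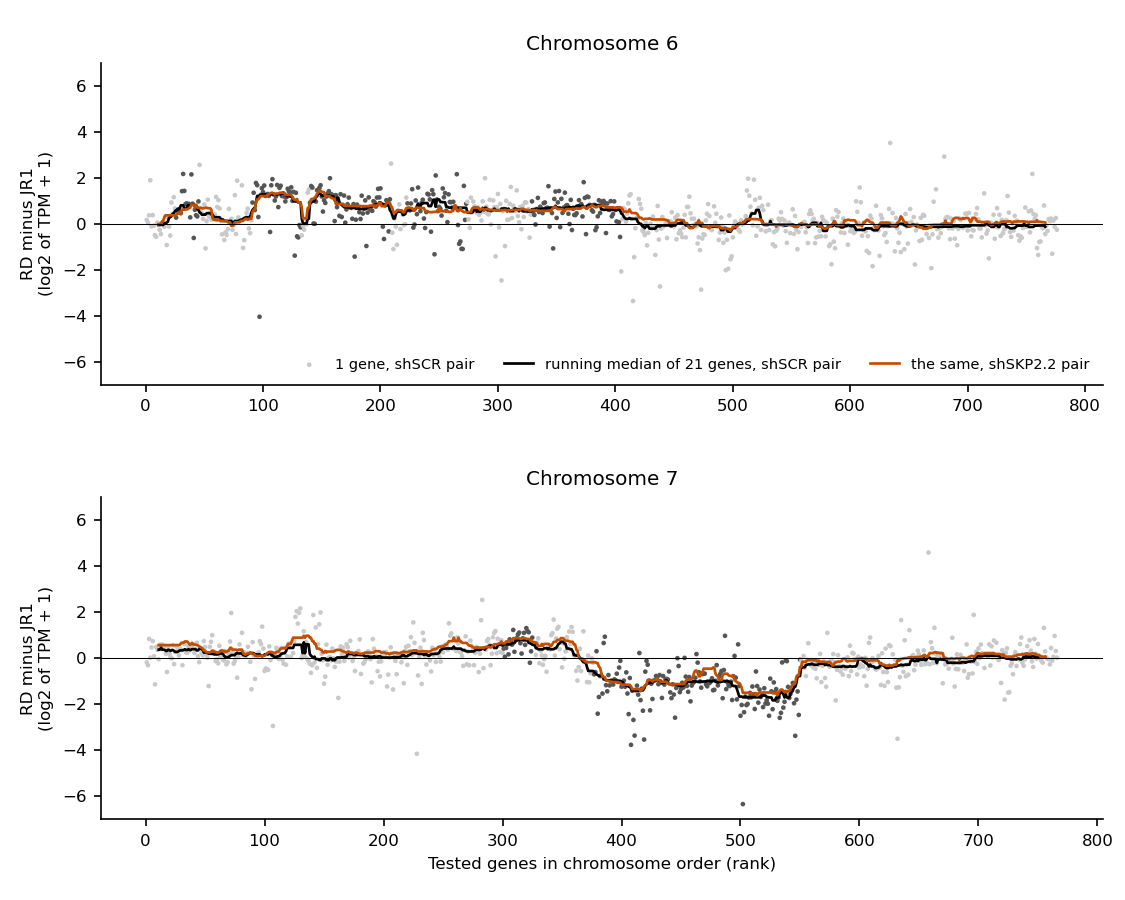
Difference of RD minus JR1 on the log2 (TPM + 1) scale on the y axis for tested genes of chromosomes 6 and 7, placed by their order on the chromosome on the x axis, dark grey inside the stretches and light grey outside. Lines are running medians of 21 genes, black for the shSCR pair and orange for the shSKP2.2 pair. On chromosome 7 both lines drop below 0 over the 174 genes from ADAM22 to SRPK2, reaching -1.84 with shSCR.

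The start sites of genes on the JR1 side were poorer in CpG than those of all tested genes. The promoter, 250 bases before to 50 bases after the start, was taken from RefSeq (GRCh38.p14) for the 11541 tested genes that have an entry. CpG is lost over evolution from DNA that is methylated in the germ line, and its observed count over that expected from C and G content separates broadly used from tissue-restricted promoters. The median of this ratio was 0.83 over all 11541, 0.79 over 518 genes higher in RD and 0.70 over 759 genes higher in JR1. At least 0.6 was found in 79.7% of all, 74.3% of the RD set and 58.6% of the JR1 set, and in 49.0% of all 27305 promoters given by RefSeq. In the 132 genes at least 4-fold higher in JR1 the share was 51.5%. For the 45 muscle genes with an entry, taken by list whatever their difference, the median ratio was 0.23. The 33 S phase genes with an entry had 0.92. The share with CAGCTG, the letters that MYOD1 and MYOG prefer among E-boxes (CANNTG), was 17.6% of all, 17.2% of the RD set and 23.5% of the JR1 set, and 46.7% of the muscle genes. Without the genes of the muscle list, the 739 left in the JR1 set changed little: 23.1% held CAGCTG and 59.9% had a ratio of at least 0.6. CAGCTG reads the same on both strands, every match is also a CANNTG match, and 17.7% of all 27305 promoters hold it. CANNTG itself was in 60.7% of the promoters of tested genes, 64.5% of the RD set, 67.9% of the JR1 set and 68.9% of all 27305. A match is a run of letters and says nothing of binding.

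Promoters are shown for the gene with the largest difference on each side, for the S phase gene highest in RD and for the muscle gene with the largest difference among those with an entry, with CG in capitals in GFRA1, KRT75 and EXO1 and CAGCTG in capitals in CAV3.
GFRA1, chr10:116274656-116274955, minus strand: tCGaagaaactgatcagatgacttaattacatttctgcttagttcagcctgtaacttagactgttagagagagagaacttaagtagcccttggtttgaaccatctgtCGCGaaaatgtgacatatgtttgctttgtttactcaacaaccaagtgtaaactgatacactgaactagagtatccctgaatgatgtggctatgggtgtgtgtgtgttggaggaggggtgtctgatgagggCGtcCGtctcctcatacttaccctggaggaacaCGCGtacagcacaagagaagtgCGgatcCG
KRT75, chr12:52434322-52434621, minus strand: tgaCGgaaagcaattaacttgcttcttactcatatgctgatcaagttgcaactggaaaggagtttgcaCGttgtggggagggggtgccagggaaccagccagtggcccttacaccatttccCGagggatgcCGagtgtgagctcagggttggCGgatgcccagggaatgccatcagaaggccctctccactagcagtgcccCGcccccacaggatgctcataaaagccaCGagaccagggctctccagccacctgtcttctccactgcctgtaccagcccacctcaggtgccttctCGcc
CAV3, chr3:8733552-8733851, plus strand: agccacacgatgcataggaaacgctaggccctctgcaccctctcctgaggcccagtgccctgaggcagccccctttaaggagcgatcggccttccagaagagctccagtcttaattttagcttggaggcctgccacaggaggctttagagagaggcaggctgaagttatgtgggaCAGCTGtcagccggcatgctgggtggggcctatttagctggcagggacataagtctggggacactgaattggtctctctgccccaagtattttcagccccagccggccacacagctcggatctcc
EXO1, chr1:241847954-241848253, plus strand: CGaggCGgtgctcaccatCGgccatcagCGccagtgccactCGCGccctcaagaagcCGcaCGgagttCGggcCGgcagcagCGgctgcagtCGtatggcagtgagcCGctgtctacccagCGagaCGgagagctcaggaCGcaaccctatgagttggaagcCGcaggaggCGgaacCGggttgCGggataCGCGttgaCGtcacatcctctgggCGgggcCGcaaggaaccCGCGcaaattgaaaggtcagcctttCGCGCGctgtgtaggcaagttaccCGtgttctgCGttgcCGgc

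GFRA1 holds 9 CG in its 300 bases and KRT75 holds 8, with ratios of 0.61 and 0.32. EXO1 holds 33 CG with a ratio of 1.04. CAV3 holds 7 CG, a ratio of 0.28, and 1 CAGCTG.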

How the data were processed

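RNA of both lines, each with shSCR or with shSKP2.2, was measured in 4 poly-A selected, directional libraries read as pairs of 150 bases, 1 library per group. The TPM that the authors deposited for each gene, with 2 decimals, came from RSEM 1.3.2 after alignment by STAR 2.7.9a on the GRCh38 build. The depth cannot be recovered from TPM, so neither counting error nor an interval can be given.

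From these TPM, 1074 short structural RNA genes were removed by symbol (with RNase P, RNase MRP and transfer RNA genes) and the rest was rescaled to 1e+06. Strand-specific kits were used, but the counting setting is not given in the sources used here. Genes with a mean below 1 TPM were left out, 1 TPM was added before the log2, and a gene was called at a difference of 1 in either direction. With 1 library a side no test was run.

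The gene lists, 43 in all beside the histone genes, and the members were chosen with earlier results of these data known. The lists came from general knowledge, except those of the S and of the G2/M phases, which belong to an installed single-cell package. Mitochondrial messenger RNAs were not analysed here. Named genes were the 12 widest differences in each direction (without short RNA, pseudogene, clone-named and read-through genes), SKP2, MYOD1, MYOG, MYF5, DES, MYC, CDKN1A, CDKN1B, CDKN1C and MKI67, and in each list up to 3 members past the limit in each direction. Other genes were named after their values were seen.

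Of 39323 symbols, 37040 matched RefSeq (GRCh38.p14), and positions are those of the deposited files. Code was tested on simulated data. Python 3.11.15, numpy 2.4.6, pandas 2.3.3 and matplotlib 3.10.9 were used. The alternatives were the TPM as deposited, differences centred on their median, 0.1 TPM added in place of 1, a minimum mean of 5 TPM, no minimum, the minimum over the shSCR libraries, RNase P, RNase MRP and transfer RNA genes kept, limits of 1.5-fold and 4-fold, and the shSKP2.2 pair. Leaving out the stretches or the histone genes was added after seeing the data. Some genes of the lists are not reported here.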

Additional observations from a re-analysis of the deposited data

Results flagged for a closer look

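The difference between the lines took opposite directions with shSCR and with shSKP2.2 for 3 of the named genes, and this change of direction was not tested. ANKRD1, a muscle ankyrin repeat protein and YAP target, had 13.7 TPM in RD and 81.5 in JR1 with shSCR (-2.48 on the log2 scale) and 37.2 and 30.4 TPM with shSKP2.2 (0.28). CCN2, a matrix-associated YAP target, had 165 and 379 TPM with shSCR (-1.19) and 134 and 127 TPM with shSKP2.2 (0.077). HLA-F, a class I gene close in sequence to its relatives, had 1.18 and 4.86 TPM with shSCR (-1.43) and 1.36 and 0.179 TPM with shSKP2.2 (1.00), all near the minimum of 1 TPM.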

How the results depend on the processing

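The number of genes higher in JR1 was 1065, and it became 448 with the TPM as deposited, 693 with a minimum mean of 5 TPM, which leaves 11819 genes, 2325 at a limit of 1.5-fold and 203 at 4-fold. Genes higher in RD numbered 717, and 1819 and 104 at these limits. The RD share of called genes was 40.2%, but 65.3% with the TPM as deposited and 55.9% in the shSKP2.2 pair, and 0.1 TPM added in place of 1 gave 1016 and 1452 genes. Among list medians, blood and endothelial markers moved to 0.88 with the TPM as deposited, fusion-positive markers to -1.34 with 0.1 TPM added, and in the shSKP2.2 pair MHC class I presentation to 0.20 and chemokines and cytokines to -0.37. Smaller shifts with the TPM as deposited took Notch genes to -0.065, MHC class I presentation to -0.085 and growth factor ligands to 0.081. With histone genes left out before the rescaling, the stretch from GMNN to BTN2A3P had a median of -0.051, against -0.10 when they were left out after it. In the shSKP2.2 pair the direction turned for ANKRD1 (0.28), CCN2 (0.077) and HLA-F (1.00), and the causes were not tested. Over 171 tested named genes, 1228 of 1301 values under the alternatives stayed on the same side of the limit, 69 fell below it and 1 rose past it. Part of this was fixed beforehand, since a changed minimum or 0.1 TPM added could not bring a called gene below the limit. In the shSKP2.2 pair 121 of the 171 stayed, 46 fell below the limit, 1 rose past it and 3 changed direction. No paired analysis was possible because each group has 1 library, and for the same reason no library could be left out. Unknown depth limits genes of low TPM most.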
